A study of Caenorhabditis elegans with 8 samples.

Results

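The insulin receptor pathway and target of rapamycin complex 2 (TORC2) of Caenorhabditis elegans were followed through 10 genes chosen by name: daf-2, aap-1, age-1, daf-18, pdk-1, akt-1, akt-2, sgk-1, rict-1 and daf-16. All 10 were found among the 46739 genes counted in each library, and all 10 were among the 12021 genes that passed the filter on low counts. The RNA came from whole worms of a single genotype, labelled as a neuronal DAF-15 AID worm. In the auxin-inducible degron (AID) system, a plant F-box protein marks a tagged target for the proteasome once an auxin is present. DAF-15 is the worm Raptor, the subunit that defines TOR complex 1 (TORC1). Worms fed on OP50 bacteria were given either 5-Ph-IAA, the auxin analog that triggers degradation, or ethanol from the L4 larval stage, and RNA was taken after 24 h, on day 1 of adulthood. There were 4 libraries of each group, and ethanol worms carried the degron too. Worms lacking it were not among the samples. The labels state neither the dose, nor the promoter that restricts the degron to neurons, nor how many worms were pooled per library.

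The pathway carries nutrient and growth signals from insulin-like peptides to the nucleus. The receptor DAF-2 activates the lipid kinase AGE-1, whose product recruits PDK-1, AKT-1 and AKT-2 to the membrane, and the lipid phosphatase DAF-18 removes that product. The AKT kinases phosphorylate the forkhead transcription factor DAF-16 and keep it out of the nucleus, and lowered DAF-2 signalling is known for long life and dauer formation. TORC2, defined by the subunit RICT-1 (Rictor), shares the TOR kinase with TORC1 and acts on the related kinases AKT and SGK-1. Most of this signalling runs through protein and lipid phosphorylation, which transcript counts do not measure.

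None of the 10 transcripts passed the test between 5-Ph-IAA and ethanol (0 higher and 0 lower at an adjusted p under 0.05, edgeR's quasi-likelihood test adjusted by Benjamini and Hochberg's method across the whole table), against 0.0998% of all tested genes. With the replicate number as a block, 0 members passed, against 0.732% of tested genes, and with DESeq2 0 members passed, against 0.241%. At an unadjusted p under 0.05 there were 0 members in edgeR without the block and 0 with it, against 4.41% and 6.91% of tested genes. The libraries of the 2 groups overlapped for all 10 members, and 2.65% of tested genes had groups that did not overlap. The log2 fold changes of the members, 5-Ph-IAA over ethanol, ran from -0.061 to 0.20 with 6 above 0 and 4 below, and their median was 0.018, beside -0.00094 for all tested genes. For 7 of the members the 95% interval of the difference lay within a 1.25-fold change in either direction, and the widest bounds over the 10 were 0.872-fold and 1.43-fold. Levels are given as CPM (read counts scaled to equal library totals, as edgeR's cpm function gives them) with TMM factors, with the 4 libraries of a group in the order of their replicate numbers.

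**Figure D1:**
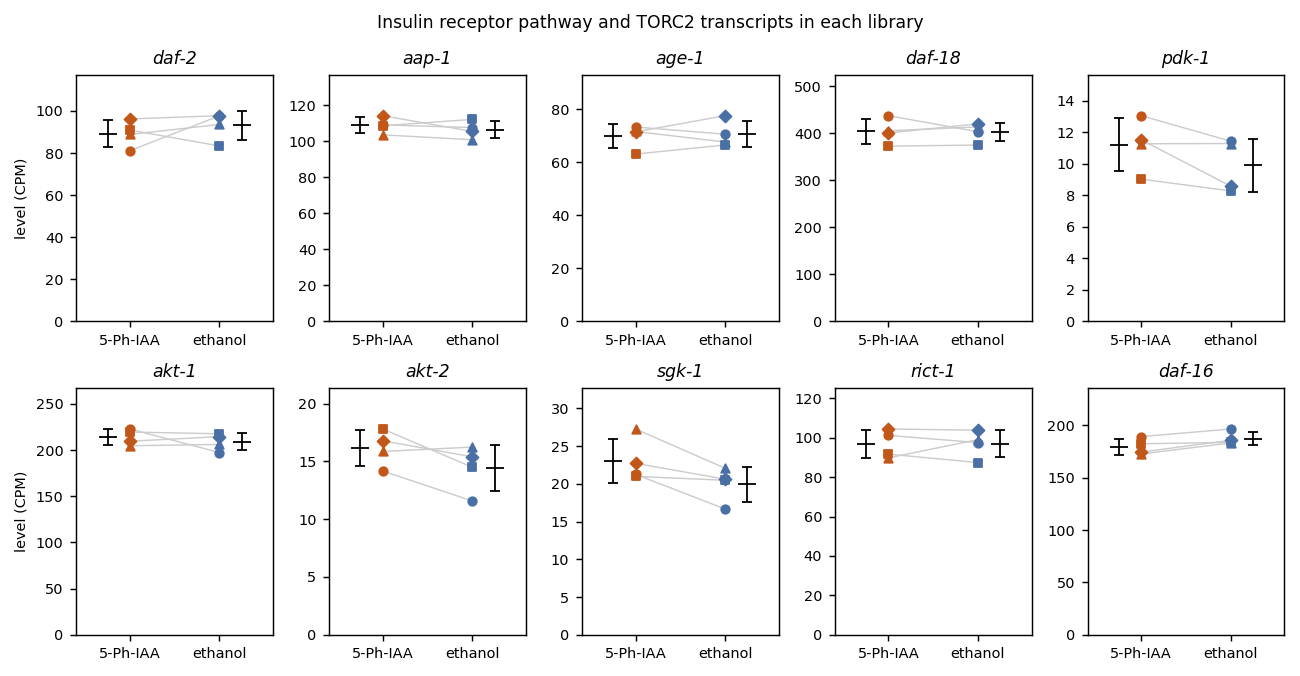
Level (CPM, axes from 0) of each member in every library, 5-Ph-IAA left and ethanol right. Symbols mark the replicate number (circle 1, square 2, triangle 3, diamond 4), grey lines join equal numbers, and bars give the mean and SD of 4 libraries; the groups overlap in all 10 panels.

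The receptor gene daf-2 (WBGene00000898) codes for the worm's insulin and IGF-1 receptor tyrosine kinase. It lies on chromosome III: 2994514 to 3040846, minus strand (assembly WBcel235, Ensembl release 115, as for all positions here). Its level was 81.1, 90.9, 88.9 and 96.2 CPM in the 5-Ph-IAA libraries, against 97.7, 83.4, 93.6 and 97.8 CPM in the ethanol libraries. The lowest value of all 8 was that of 5-Ph-IAA replicate 1, and the other 3 values of that group lay inside the ethanol range. The means were 89.3 ± 6.25 CPM with 5-Ph-IAA and 93.1 ± 6.76 CPM with ethanol (SD, n = 4 each), and the log2 fold change was -0.061 (SE 0.0661, 95% interval -0.20 to 0.075, edgeR adjusted p = 0.999). Ensembl lists 7 transcripts of daf-2, of which 6 are coding, and counts per gene do not tell them apart.

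Below the receptor stands the phosphoinositide 3-kinase, made of the catalytic subunit AGE-1 and the adaptor subunit AAP-1. The transcript of age-1 (WBGene00000090, II: 11519328 to 11527054, minus strand) stood at 73.3, 63.1, 71.6 and 71.4 CPM with 5-Ph-IAA, against 70.5, 66.5, 67.6 and 77.5 CPM with ethanol. The ethanol group held the highest value and the 5-Ph-IAA group the lowest. The log2 fold change of age-1 was -0.015 (SE 0.0696, 95% interval -0.16 to 0.13, edgeR adjusted p = 0.999). The transcript of aap-1 (WBGene00000001, I: 5107843 to 5110183, plus strand) stood at 109, 109, 103.7 and 114 CPM with 5-Ph-IAA, against 108, 112, 101 and 106 CPM with ethanol. The groups overlapped, and these 8 values were among the tightest of the pathway, with a coefficient of variation (CV) of 3.99% in the 5-Ph-IAA group and 4.41% in the ethanol group. Exons of age-1 share 192 bases with B0334.10 and those of aap-1 136 bases with Y110A7A.21, genes on the opposite strand with 61 and 268 reads in all 8 libraries together, against 4871 for age-1 and 7453 for aap-1. The strand setting of the counting is not known, so reads of such partners may not be told apart. The log2 fold change of aap-1 was 0.032 (SE 0.0561, 95% interval -0.084 to 0.15, edgeR adjusted p = 0.999).

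The phosphatase gene daf-18 (WBGene00000913, IV: 420011 to 425177, minus strand) opposes AGE-1 and was the most abundant member. It stood at 437, 372, 405 and 401 CPM with 5-Ph-IAA, against 403, 375, 413 and 420 CPM with ethanol. Both groups had their lowest library at replicate 2, and the highest value was that of 5-Ph-IAA replicate 1. The means of daf-18 were 404 ± 26.5 CPM with 5-Ph-IAA and 403 ± 19.8 CPM with ethanol (SD, n = 4 each). Its log2 fold change was 0.0041 (SE 0.0546, 95% interval -0.11 to 0.12, edgeR adjusted p = 0.999). With 2926 to 4500 reads per library, its counting error was 1.69% in each group, below the CV of 6.56% in the 5-Ph-IAA group and 4.92% in the ethanol group.

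The kinase PDK-1 phosphorylates and activates the AKT kinases. Its gene pdk-1 (WBGene00003965, X: 1321344 to 1327986, plus strand) was the scarcest member, with 71 to 129 reads per library. It stood at 13.1, 9.03, 11.3 and 11.5 CPM with 5-Ph-IAA, against 11.4, 8.28, 11.3 and 8.58 CPM with ethanol. Replicate 2 was the lowest library of both groups, and the values of the other libraries interleaved. The log2 fold change of pdk-1 was 0.20 (SE 0.156, 95% interval -0.12 to 0.52, edgeR adjusted p = 0.999). Its CV was 14.8% with 5-Ph-IAA and 17.1% with ethanol, beside counting errors of 10.1% and 10.9%, and its interval was the widest of the 10.

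The 2 AKT genes differed in abundance far more than either differed with treatment. The transcript of akt-1 (WBGene00000102, V: 10248905 to 10252845, plus strand) stood at 223, 220, 205 and 210 CPM with 5-Ph-IAA, against 197, 218, 206 and 215 CPM with ethanol. The lowest of these was ethanol replicate 1 and the highest 5-Ph-IAA replicate 1. The log2 fold change of akt-1 was 0.035 (SE 0.0513, 95% interval -0.071 to 0.14, edgeR adjusted p = 0.999). The transcript of akt-2 (WBGene00000103, X: 14147700 to 14152070, plus strand) stood at 14.2, 17.8, 15.9 and 16.8 CPM with 5-Ph-IAA, against 11.6, 14.5, 16.2 and 15.4 CPM with ethanol. As for akt-1, ethanol replicate 1 was the lowest library. The log2 fold change of akt-2 was 0.15 (SE 0.129, 95% interval -0.11 to 0.42, edgeR adjusted p = 0.999). Per kb of exon, akt-2 stood at 0.0723 ± 0.00778 of akt-1 with 5-Ph-IAA and 0.0659 ± 0.00811 with ethanol (SD, n = 4 each), and the ratios of the groups overlapped.

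On the TORC2 side, rict-1 (WBGene00009245, II: 13098239 to 13116810, minus strand) codes for Rictor. It stood at 101, 91.7, 89.8 and 104.4 CPM with 5-Ph-IAA, against 97.5, 87.4, 99.0 and 103.8 CPM with ethanol. Both groups had replicate 4 as their highest library, and their ranges nearly coincided. The means of rict-1 were 96.8 ± 7.14 CPM with 5-Ph-IAA and 96.9 ± 6.90 CPM with ethanol (SD, n = 4 each). Its log2 fold change was -0.0015 (SE 0.0652, 95% interval -0.14 to 0.13, edgeR adjusted p = 0.999), the smallest of the 10 in size. The kinase gene sgk-1 (WBGene00004789, X: 16254842 to 16262122, minus strand), whose product is a main output of TORC2 in the worm, stood at 21.2, 20.98, 27.3 and 22.7 CPM with 5-Ph-IAA, against 16.7, 20.5, 22.1 and 20.6 CPM with ethanol. The highest library was 5-Ph-IAA replicate 3 and the lowest ethanol replicate 1, and the remaining values lay between 20.5 and 22.7 CPM. The log2 fold change of sgk-1 was 0.20 (SE 0.116, 95% interval -0.038 to 0.44, unadjusted p = 0.0962, edgeR adjusted p = 0.999). This was the smallest unadjusted p of the members, and with the block it was 0.0552 (edgeR adjusted p = 0.742).

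At the end of the pathway stands daf-16 (WBGene00000912, I: 10750498 to 10776703, plus strand), the FOXO transcription factor. Its transcript stood at 189, 182, 173 and 175 CPM with 5-Ph-IAA, against 197, 184, 183 and 186 CPM with ethanol. The 5-Ph-IAA group held the 3 lowest values, and its replicate 1 lay within the ethanol range. The means of daf-16 were 180 ± 7.64 CPM with 5-Ph-IAA and 187 ± 6.25 CPM with ethanol (SD, n = 4 each). Its log2 fold change was -0.059 (SE 0.0508, 95% interval -0.16 to 0.046, edgeR adjusted p = 0.999). The annotation lists 11 transcripts of daf-16, all coding, which start at different promoters, so a shift among them would not be seen in these counts.

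**Figure D2:**
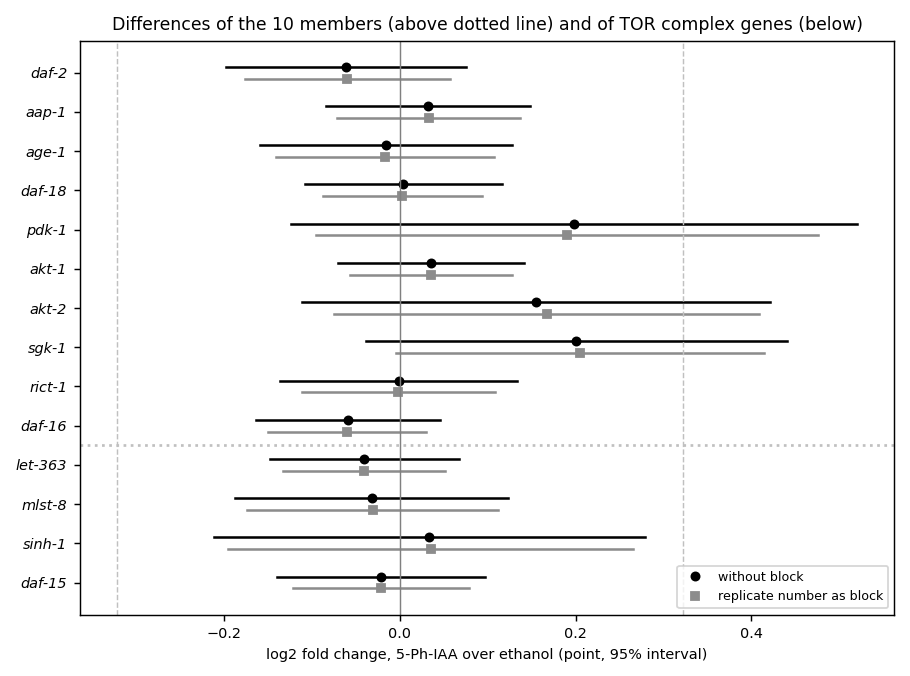
Log2 fold change, 5-Ph-IAA over ethanol, with its 95% interval for the 10 members and, below the dotted line, for 4 TOR complex genes; black is the fit without a block and grey the fit with the replicate number as a block. Dashed lines mark a 1.25-fold change, every interval includes 0, and among the members those of pdk-1, akt-2 and sgk-1 are the widest.

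The 3 least abundant members had the widest intervals. The 7 members above 60 CPM had log2 fold changes of at most 0.061 in size, with interval bounds between -0.20 and 0.15. The 3 members below 30 CPM, pdk-1, akt-2 and sgk-1, had log2 fold changes of 0.15 to 0.20. Among the 3774 tested genes at 5 to 30 CPM the median log2 fold change was 0.0041 and the median size 0.098. All 3 of these genes also lie on the X chromosome, where the 797 tested genes of the same range of levels had a median log2 fold change of 0.018, and 18.3% of those stood at or above the value of akt-2. The grouping by level and chromosome was made after the values were seen.

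The replicate numbers give a second view of the same values, within each pair of libraries of equal number. The log2 difference of sgk-1 within pairs 1 to 4 was 0.35, 0.035, 0.31 and 0.14, and 5-Ph-IAA was higher in 4 of 4 pairs. For daf-16 it was -0.054, -0.010, -0.085 and -0.090, with the 5-Ph-IAA library lower each time (4 of 4). These were the only members with 4 differences of equal sign (1 higher and 1 lower), and neither passed with the block (edgeR adjusted p = 0.742 for sgk-1 and 0.911 for daf-16). The share of all tested genes with 4 equal signs was not counted, so equal signs do not mark out sgk-1 or daf-16. Genes of the lists below, such as ist-1, ftt-2 and gsk-3, had 4 equal signs too. The pair differences of daf-2 ran from -0.27 in pair 1 to 0.12 in pair 2, the widest spread among members above 60 CPM.

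**Figure D3:**
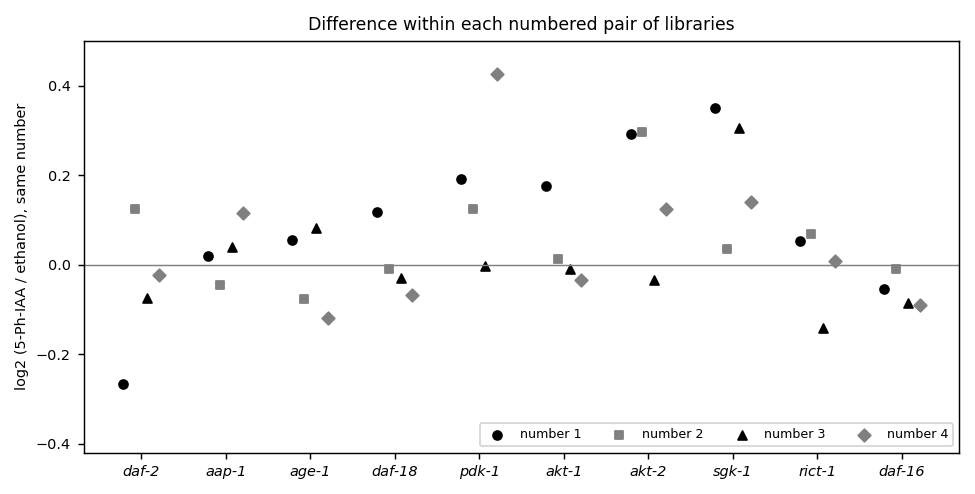
Log2 ratio of 5-Ph-IAA to ethanol levels (CPM) for each member within each pair of libraries of equal replicate number. All 4 points lie above 0 for sgk-1 and below 0 for daf-16, and for the other 8 members they fall on both sides.

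Levels of different genes were compared per kb of exon. The order from high to low was daf-18, akt-1, aap-1, daf-16, rict-1, age-1, sgk-1, daf-2, akt-2 and pdk-1, and it was the same in the 5-Ph-IAA and ethanol means. The level of daf-18 was 121 ± 7.95 CPM per kb with 5-Ph-IAA and 121 ± 5.95 CPM per kb with ethanol (SD, n = 4 each). That of pdk-1 was 4.63 ± 0.685 CPM per kb with 5-Ph-IAA and 4.08 ± 0.700 CPM per kb with ethanol, so the span from top to bottom was 26.2-fold with 5-Ph-IAA and 29.6-fold with ethanol. Within libraries, age-1 stood above sgk-1 and akt-2 above pdk-1 in 8 of 8, although the ranges over all libraries overlapped in both pairs. The order was less settled between rict-1 and age-1 and between sgk-1 and daf-2, whose ranges overlapped and where the first gene was the higher in 7 of 8 libraries. The ranges of the other neighbours did not overlap. The receptor gene daf-2, at 10.8 ± 0.753 CPM per kb with 5-Ph-IAA and 11.2 ± 0.815 CPM per kb with ethanol, ranked only eighth in this order.

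**Figure D4:**
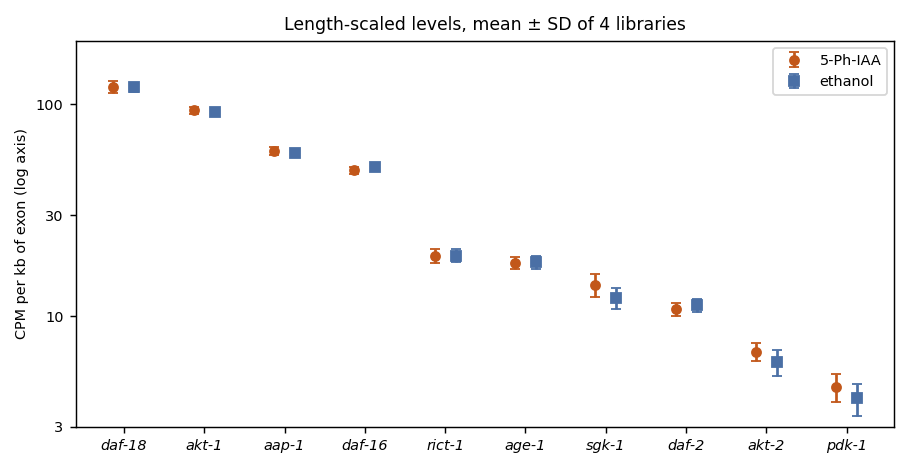
Length-scaled level (CPM per kb of exon, log axis) of each member as mean and SD of 4 libraries, 5-Ph-IAA (orange circles) left of ethanol (blue squares). The order runs from daf-18 (121 CPM per kb in both groups) to pdk-1 (4.63 with 5-Ph-IAA, 4.08 with ethanol) and is the same in both groups.

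Ratios between members within a library do not depend on how libraries are scaled. The kinase gene age-1 stood at 0.147 ± 0.00449 of the phosphatase gene daf-18 with 5-Ph-IAA and 0.149 ± 0.00743 with ethanol (SD, n = 4 each, per kb). The adaptor aap-1 stood at 3.41 ± 0.268 times its catalytic partner age-1 with 5-Ph-IAA and 3.30 ± 0.292 times with ethanol. The ratio of sgk-1 to akt-1 was 0.133, 0.133, 0.185 and 0.151 in the 5-Ph-IAA libraries, against 0.118, 0.131, 0.149 and 0.134 in the ethanol libraries. Between the subunits that define the 2 TOR complexes, daf-15 to rict-1, the ratio was 1.05 ± 0.0564 with 5-Ph-IAA and 1.07 ± 0.0507 with ethanol. In each of these ratios the groups overlapped.

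The other genes of the TOR complexes did not pass either (4 tested, 0 higher, 0 lower, median log2 fold change -0.027). The kinase gene let-363 (TOR), shared by TORC1 and TORC2, averaged 173 ± 5.86 CPM with 5-Ph-IAA and 178 ± 9.18 CPM with ethanol (SD, n = 4 each), a log2 fold change of -0.041 (edgeR adjusted p = 0.999, SE 0.0521). The transcript of daf-15 stood at 118, 112, 119.1 and 127 CPM with 5-Ph-IAA, against 127, 111, 125 and 121 CPM with ethanol. Since the degron removes protein, the daf-15 transcript is no check of its loss. The shared subunit gene mlst-8 had a log2 fold change of -0.032 (SE 0.0753).

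Of 12 accessory genes of the insulin pathway, 8 passed the filter and 0 of these passed the test (5 above 0, 3 below, median log2 fold change 0.050). The 2 with the smallest unadjusted p were gsk-3 and ist-1. The kinase gene gsk-3, whose mammalian counterpart is a classic AKT substrate, averaged 71.6 ± 8.05 CPM with 5-Ph-IAA and 78.7 ± 4.81 CPM with ethanol (SD, n = 4 each), a log2 fold change of -0.14 (edgeR adjusted p = 0.999, SE 0.0744). The insulin receptor substrate gene ist-1 averaged 7.36 ± 1.73 CPM with 5-Ph-IAA and 5.92 ± 0.996 CPM with ethanol, a log2 fold change of 0.32 (edgeR adjusted p = 0.999, SE 0.196). The 4 genes below the filter were eak-3 and eak-4, with 0 reads in every library, and sdf-9 and eak-6, with at most 5 reads in any library.

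Among 19 regulators and partner factors of DAF-16, all tested, 0 passed (10 above 0, 9 below, median log2 fold change 0.00072). The transcription factor gene pqm-1, whose product is known to act in opposition to DAF-16, stood at 25.3, 32.5, 41.5 and 32.3 CPM with 5-Ph-IAA, against 34.03, 40.0, 48.2 and 38.3 CPM with ethanol. It was lower with 5-Ph-IAA in 4 of 4 pairs, for which no share over all tested genes was counted, while the groups overlapped. Its log2 fold change was -0.29 (edgeR adjusted p = 0.999, SE 0.135), and it did not pass with the block either (adjusted p = 0.0980). The 14-3-3 gene ftt-2, whose product holds phosphorylated DAF-16 in the cytoplasm, averaged 328 ± 17.2 CPM with 5-Ph-IAA and 307 ± 17.8 CPM with ethanol (SD, n = 4 each), a log2 fold change of 0.097 (edgeR adjusted p = 0.999, SE 0.0540).

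Genes listed as DAF-16 targets were taken as transcripts downstream of the pathway. All samples had a single genotype, so whether their levels or listed directions follow DAF-16 in these worms was not tested. Of 16 genes listed as raised by DAF-16, 14 were tested and 0 passed without the block (11 above 0, 3 below, median log2 fold change 0.067). With the block 1 of the 14 rose, icl-1, the glyoxylate cycle enzyme gene, beside 0.732% of all tested genes called under that fit. It stood at 264, 340, 279 and 270 CPM with 5-Ph-IAA, against 203, 224, 255 and 223 CPM with ethanol, and the groups did not overlap. Its log2 fold change was 0.35 (edgeR adjusted p = 0.322, SE 0.0833) without the block and 0.35 (edgeR adjusted p = 0.000616, SE 0.0546) with it. DESeq2 passed icl-1 without the block (adjusted p = 0.0181) and not with it (0.203). Over the other settings in edgeR the adjusted p of icl-1 lay between 4.75e-07 with no filter and 1.00 without ethanol replicate 2.

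The superoxide dismutase gene sod-3, a common reporter of DAF-16, stood at 5.67, 4.96, 5.64 and 8.34 CPM with 5-Ph-IAA, against 3.86, 4.14, 4.82 and 4.48 CPM with ethanol. It was named after its values were seen. The groups did not overlap for sod-3, which with icl-1 makes 2 of the 14 tested genes beside 2.65% of all tested genes, yet sod-3 did not pass (log2 fold change 0.51, edgeR adjusted p = 0.999, SE 0.205, and 0.485 with the block). The nicotinamide nucleotide transhydrogenase gene nnt-1 averaged 10.6 ± 2.16 CPM with 5-Ph-IAA and 7.88 ± 0.970 CPM with ethanol (SD, n = 4 each) and did not pass (log2 fold change 0.45, edgeR adjusted p = 0.999, SE 0.165).

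Of 10 genes listed as lowered by DAF-16, 9 were tested and 0 passed without or with the block (5 above 0, 4 below, median log2 fold change 0.0070). The listed direction of these genes was not tested here, and the placing of cyp-34A9 in this list is uncertain. Its value is therefore not read as that of a gene lowered by DAF-16. The cytochrome P450 gene cyp-34A9 averaged 3.68 ± 1.05 CPM with 5-Ph-IAA and 2.26 ± 0.389 CPM with ethanol (SD, n = 4 each), a log2 fold change of 0.68 (edgeR adjusted p = 0.999, SE 0.268). The gut esterase gene ges-1 had a log2 fold change of 0.24 (edgeR adjusted p = 0.999, SE 0.153). With the block the smallest adjusted p of the list was that of dod-24, which was lower with 5-Ph-IAA and did not pass. Its log2 fold change was -0.17 with the block (edgeR adjusted p = 0.105, SE 0.0468) and -0.16 without it (edgeR adjusted p = 0.999, SE 0.200). This gene was named after its values were seen.

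**Figure D5:**
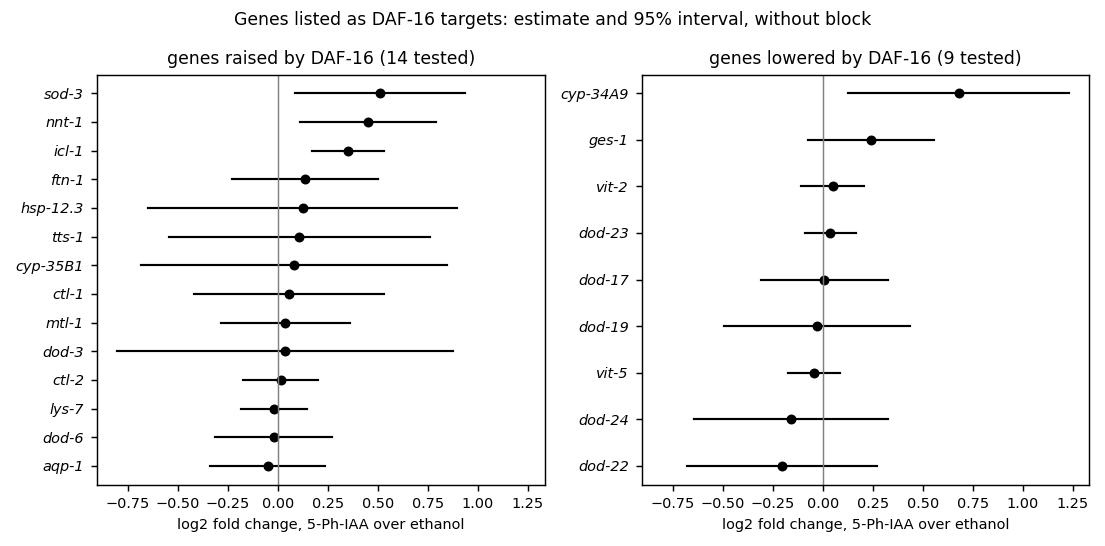
Log2 fold change, 5-Ph-IAA over ethanol, with its 95% interval in the fit without a block. The 14 tested genes listed as raised by DAF-16 are on the left and the 9 listed as lowered by it on the right. The intervals of sod-3, nnt-1, icl-1 and cyp-34A9 lie above 0 before adjustment, and none of these genes passed after adjustment over all tested genes.

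The libraries held 7354710 to 10893322 reads assigned to genes. The 8 neuron markers chosen (such as rab-3, snb-1 and egl-3) were all detected, summing to 314 to 335 CPM with 5-Ph-IAA and 329 to 352 CPM with ethanol, and 0 of them passed the test (7 below 0, median log2 fold change -0.11). Germline markers summed to 3766 to 3969 CPM with 5-Ph-IAA and 3594 to 4023 CPM with ethanol, and the 6 sperm markers to at most 3.67 CPM in any library. Of 6 epidermis markers, 3 were tested, and 0 markers of any tissue passed. In RNA of whole worms, a change in neurons alone cannot be told apart from none if other tissues supply most of a transcript, nor fewer cells from less RNA per cell. The sums of the neuron markers overlapped between the groups, and their log2 fold changes ran from -0.41 for rab-3 to 0.051 for egl-3. The largest parts of the sums were snb-1 (mean 170 CPM with 5-Ph-IAA, 173 with ethanol) and egl-3 (71.3 and 68.8). At an unadjusted p under 0.05 in edgeR there was 1 of the 8 without the block, rab-3. With the block there were 2, rab-3 and ric-4, both lower with 5-Ph-IAA. The shares of all tested genes were 4.41% and 6.91%. The lower median of the neuron markers did not enter any fit, and its part in the members' values was not tested.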

How the data were processed

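RNA of whole worms was sequenced in 8 libraries, 4 per group. Each library has a file of raw read counts per WormBase gene, as the authors deposited them. FastQC 0.11.5, TopHat2, HTSeq and DESeq2 are named in the submitters' processing notes, which give them no roles. The genome build, annotation and strand setting were not given in the sources used here. In each file 5 summary lines took no part in library sizes or tests; between 47.7% and 48.1% of its total was the summary line of reads without a gene, 1.01 times the reads in genes in every library. Whether this comes with the strand setting was not tested, and it bears on all counts and on genes that overlap on opposite strands. Reads were 7354710 to 10893322 in genes per library, so the scarcest member, pdk-1, rests on 71 to 129.

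Symbols came from a WormBase name table and positions from Ensembl release 115 (WBcel235), in which 46484 of 46739 identifiers were found. Exons of 6 members share bases with another annotated gene, from 8 (akt-1) to 192 (age-1). The partner of akt-1, rop-1 on the opposite strand, had more reads than the member, 18532 against 14656 over all libraries. The partner of rict-1, col-86, lies on the same strand and had 33 reads against 6720. Length-scaled levels use the merged exon length of each gene.

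Genes passing filterByExpr were compared with edgeR 4.0.16 in R 4.3.3 (TMM factors 0.986 to 1.02, quasi-likelihood test, robust, two-sided, threshold 0.05 after Benjamini-Hochberg adjustment). SE is the absolute log2 fold change over the square root of the F statistic, and 95% intervals use the moderated degrees of freedom. DESeq2 1.42.0 and limma-voom (limma 3.58.1), other scalings and filters, an exact permutation test and leaving out each library were alternatives. The code was tested on simulated data.

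The labels do not say whether replicates were grown separately, so a p-value here reflects library-to-library spread that may be technical. Libraries of a group differed beyond sampling noise (chi-square statistic 2.54 to 8.87 times its degrees of freedom). Deviations from the group means correlated at 0.147, 0.130, 0.1002 and 0.144 between libraries of the same number. Between others they correlated at most at 0.0103. Deviations cancel out within a group, so low values there follow in part from positive ones at equal numbers. They are no separate sign of pairing. Every pair of equal number stood above 0.1, the bound set for pairing, though the value of 0.1002 barely did. The fits with the replicate number as a block and the pair differences therefore use the numbers as pairs. The main fit has no block and ignores this pairing, as does the exact permutation test. Each SE, interval and p-value given without mention of the block comes from a fit without it.

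The members and lists were chosen with earlier results of these data known. Genes named are the members, daf-15, let-363 and the genes of a list that passed with or without the block. The 2 of each list with the smallest unadjusted p without the block are named too. Named besides are sod-3, dod-24, genes below the filter, overlapping genes and examples of markers.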

Additional observations from a re-analysis of the deposited data

How the results depend on the processing

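None of the 10 members passed under any of the 17 alternatives (170 values, lowest adjusted p = 0.742 for sgk-1 with the replicate block; lowest exact permutation p = 0.143, two-sided, where 70 splits allow 0.0286). The direction turned for rict-1 with upper quartile factors (9.58e-05), no filter (0.000448) and limma-voom (2.55e-05). Leaving out 1 library turned it for rict-1 (-0.0484 to 0.0353; 5-Ph-IAA replicate 2 or 3, ethanol replicate 1, 3 or 4), age-1 (-0.0437 to 0.0361; 5-Ph-IAA replicate 2, ethanol replicate 4) and daf-18 (-0.0363 to 0.0413; 5-Ph-IAA replicate 1, ethanol replicate 2). Each of these log2 fold changes is smaller in size than the SE given in the report for its gene, and the cause was not tested. The count of all genes called, 12, moved to 88 in edgeR with the replicate block, 24 in DESeq2 with the replicate block, 29 in DESeq2 and 62 with no filter (23362 genes tested), and lay between 6 and 19 when 1 library was left out (7 without 5-Ph-IAA replicate 1, 7 without 2, 19 without 3, 6 without 4). The filter of 1 CPM in 4 libraries, planned as the stricter one, kept more genes (12453) and called 12. Among genes listed as raised by DAF-16 the count went to 1 with no filter, with DESeq2 and in edgeR with the replicate block. In each case the gene was icl-1 (edgeR adjusted p = 4.75e-07 with no filter, DESeq2 adjusted p = 0.0181, edgeR adjusted p = 0.000616 with the block). The block changed no other call of a listed gene. The intervals of pdk-1, akt-2 and sgk-1, the members with the fewest reads, reach 1.43-fold, 1.34-fold and 1.36-fold; the part of depth in this was not tested.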
